A study of Homo sapiens with 48 samples.

Results

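The 16 libraries described here come from IMR90 ER:RAS fibroblasts made senescent with 4-hydroxytamoxifen (4OHT) and then depleted of RBM39 or left with normal RBM39. They were chosen by sample title, as 8 libraries with siRNA against RBM39 in 4OHT and 8 libraries with non-targeting siRNA (siNT) in 4OHT, of 48 libraries in all. IMR90 is a line of human lung fibroblasts, and all groups carried the genotype ER:RAS G12V, a fusion of oncogenic HRAS to the hormone-binding part of the estrogen receptor that 4OHT switches on. The cells received 4OHT, or its solvent DMSO as the control, for 6 days, were transfected with siRNA, and were kept for another 2 days in 0.5% serum before RNA was taken. Knockdown used siRBM39-06 and siRBM39-08, and the controls siNT1 and siNT2, with 4 replicates of each siRNA. The labels name no separate cultures or clones, so p-values measure the spread between these libraries, which may be technical. The comparison groups are 8 DMSO siRBM39 and 8 DMSO siNT libraries, and 8 4OHT libraries with siRNA against SF3B1, a core subunit of the U2 small nuclear ribonucleoprotein (snRNP). In bulk RNA, fewer cells of a type and less RNA per cell cannot be told apart.

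RBM39 is an RNA-binding protein with arginine- and serine-rich stretches that resembles the U2AF splicing factors. U2AF binds the pyrimidine-rich tract and the AG at the end of an intron, SF1 binds the branch point, and the U2 snRNP with SF3A and SF3B subunits then takes over the branch point, which sets the 3′ splice site of the next exon. Oncogene-induced senescence is a stable growth arrest in which cells secrete interleukins, chemokines, proteases and growth factors, called the senescence-associated secretory phenotype (SASP).

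Exons with large changes are shown here, because their ends are where these factors act. A MICAL1 exon with a larger change is described below without its sequence. Lower case marks 20 intron bases before the exon and 6 after it, and capitals mark the exon, all 5′ to 3′ and read from GRCh37. Each of these exons is annotated as coding. The first 4 were included less after siRBM39, in ZNF207, a mitotic zinc finger protein (chr17:30688487-30688534, plus strand), in BECN1, the autophagy protein Beclin 1 (chr17:40965966-40966026, minus strand), in PABPC4, a cytoplasmic poly(A)-binding protein (chr1:40029508-40029594, minus strand), and in PAPOLA, a poly(A) polymerase (chr14:97026986-97027048, plus strand). The next 2 were included more, in GANAB, a glucosidase subunit of the endoplasmic reticulum (chr11:62401782-62401847, minus strand), and in SNX14, a sorting nexin (chr6:86248556-86248582, minus strand).
ZNF207: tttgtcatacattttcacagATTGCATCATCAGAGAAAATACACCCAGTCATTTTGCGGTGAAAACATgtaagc
BECN1: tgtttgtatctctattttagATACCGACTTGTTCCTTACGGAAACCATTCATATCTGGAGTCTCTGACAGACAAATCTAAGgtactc
PABPC4: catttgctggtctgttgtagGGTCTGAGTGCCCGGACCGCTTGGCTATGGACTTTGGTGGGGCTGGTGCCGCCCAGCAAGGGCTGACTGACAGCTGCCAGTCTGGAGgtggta
PAPOLA: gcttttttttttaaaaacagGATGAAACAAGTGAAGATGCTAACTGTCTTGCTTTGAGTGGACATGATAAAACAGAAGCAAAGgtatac
GANAB: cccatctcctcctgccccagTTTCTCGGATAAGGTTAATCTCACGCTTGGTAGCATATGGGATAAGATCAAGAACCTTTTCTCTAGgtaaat
SNX14: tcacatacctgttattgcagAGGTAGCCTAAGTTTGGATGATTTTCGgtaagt

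Reads per library assigned to genes ranged from 32346632 to 45855425 in 4OHT siNT and from 34283723 to 44920212 in 4OHT siRBM39. Replicate 4 of siRBM39-08 stood apart. The SD over genes of its log2 deviation from its siRNA's mean was 0.762, against 0.0791 to 0.264 in the other 15 libraries. Its deviation rose by 0.56 on the log2 scale per 10 points of gene GC content (Pearson r across genes 0.644, as a description), where the slope of the others lay between −0.19 and 0.05. It is called the deviating library below, where some values are given with and without it and the others include it. Of the DMSO libraries, siRBM39-06 replicate 1 also rose with GC content (slope 0.32, SD 0.405), and replicate 3 less so (slope 0.14, SD 0.266). Both are kept in all comparisons with DMSO. All 14 fibroblast markers, such as VIM and COL1A1, were present in both groups. The summed level of the epithelial markers was 2.66 to 4.50 cRPKM (read counts scaled by gene length and depth and corrected for mappability) in siNT and 2.70 to 5.67 in 7 siRBM39 libraries, but 35.6 in siRBM39-08 replicate 4. The endothelial markers summed to 6.22 to 6.96 cRPKM in siNT and 8.19 to 11.4 in siRBM39, with TEK the only one of 6 that passed the filter on counts, and the immune markers to 45.6 to 53.7 and 51.3 to 66.8 cRPKM, with CD68 the only one of 6 that passed. The part of these cell markers in the results below was not tested. The immune markers PTPRC and CD3E and the muscle markers DES and MYH11 were near 0 in both groups.

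The targeted gene was low in every siRBM39 library. RBM39 (ENSG00000131051) had 115, 120 and 127 CPM (read counts scaled to the library's depth by TMM; lowest, median and highest of 8) in siNT and 13.7, 16.6 and 18.4 CPM in siRBM39. The lowest siNT library lay far above the highest siRBM39 library, which was siRBM39-08 replicate 4. The log2 fold change was −2.89 (SE 0.05, edgeR adjusted p = 1.25e-39), which leaves 13.5% of the siNT level, and −2.91 without siRBM39-08 replicate 4. It was −3.03 with siRBM39-06 against siNT1 and −2.75 with siRBM39-08 against siNT2. In DMSO it was −2.64, and the difference between the treatments, −0.25, passed the test (edgeR adjusted p = 0.0102).

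**Figure D1:**
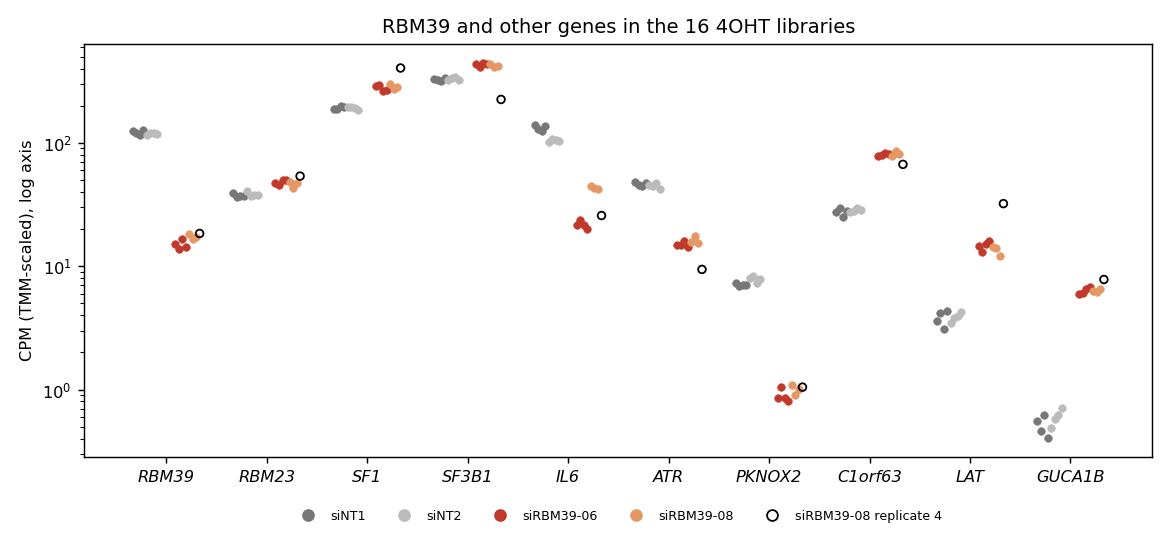
CPM on a log axis of 10 genes in each of the 16 4OHT libraries; grey points are siNT1 and siNT2, red and orange points siRBM39-06 and siRBM39-08, and the open circle is siRBM39-08 replicate 4. RBM39 fell from a median of 120 to 16.6 CPM and PKNOX2 from 7.37 to 0.951 CPM, while the open circle sits away from its group for SF3B1 (224 CPM) and LAT (32.1 CPM).

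Among 9991 genes tested, 5639 were called at an adjusted p under 0.05 in 4OHT, which is 56.4% of all genes. Of these 3216 (32.2%) were higher and 2423 (24.3%) lower. Of the 229 genes that changed at least 2-fold 58 were higher and 171 lower. Without siRBM39-08 replicate 4 the count was 6013 (60.2%), and 54 of the 237 genes past 2-fold were higher. All 8 siRBM39 libraries lay above all 8 siNT libraries for 1144 genes (11.5%) and below them for 1361 genes (13.6%). The median log2 fold change over all genes was 0.05. A call alone is therefore common, and the members of each list below are read against these shares.

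The factors that recognise the 3′ splice site moved in both directions. In the U2AF and RBM39 family 3 of 9 genes were higher and 1, RBM39 itself, lower, a share of rises near that of all genes. RBM23, the closest relative of RBM39, had 36.1, 37.5 and 40.6 CPM in siNT and 43.4, 47.9 and 53.7 CPM in siRBM39, with no overlap (log2 fold change 0.35, SE 0.04, adjusted p = 1.15e-10). SF1, the branch point protein, had 184, 192 and 199 CPM in siNT and 265, 288 and 404 CPM in siRBM39. It rose by 0.64 (SE 0.05, adjusted p = 2.55e-14), or by 0.56 without siRBM39-08 replicate 4, which gave the value of 404. SF3B1 had 315, 327 and 340 CPM in siNT, while 7 siRBM39 libraries lay above and siRBM39-08 replicate 4 lay below at 224 CPM. The log2 fold change of SF3B1 was 0.29 (SE 0.08, adjusted p = 0.00104) and 0.38 without that library. The call was lost with siRBM39-08 alone (0.16), a fit that includes that library. U2AF1, the small U2AF subunit, rose by 0.28 with overlapping groups. That call rests on siRBM39-06 (0.42 alone) and was lost with siRBM39-08 alone (0.11), and the value is uncertain because a near-identical copy exists. SF3A2, an SF3A subunit, rose by 0.45, or by 0.34 without the deviating library. SNRPA1, a U2 snRNP protein, fell by 0.25 in 4OHT and rose by 0.39 in DMSO, and this difference passed the test (adjusted p = 7.8e-08).

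Of the 14 SF3A, SF3B and U2 genes tested, 7 were higher and 1 lower, and without the deviating library 3 were higher and 1 lower. SF3B2, SF3B5, PHF5A, DDX42 and SNRPB2 were called only with it. Of the 25 hnRNP and PTB genes, which mostly repress splice sites, 14 were higher and 3 lower (median 0.14), or 16 and 3 without the deviating library. PTBP2 rose by 1.16 and HNRNPL by 0.52, while HNRNPAB fell by 0.45. Of the 12 SR proteins, which mostly promote exon inclusion, 7 were higher and 2 lower (median 0.14). SRRM1 rose by 0.65 and RSRC2 fell by 0.62. Of the 10 kinases that phosphorylate SR proteins, CLK1 and CLK4 rose by 0.53 and 0.62, and 4 others, led by SRPK1 at −0.38, were lower (3 higher and 3 lower without the deviating library).

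Of HRAS and ESR1, which make up the transgene, and SUPT5H and CHD4, which the study singled out, HRAS alone passed the test with all libraries. HRAS reads, which the transgene and the endogenous gene may share, had 810, 879 and 949 CPM in siNT and 939, 1059 and 1588 CPM in siRBM39, with overlap. The log2 fold change was 0.33 (SE 0.07, adjusted p = 7.89e-05) and 0.24 without the deviating library. ESR1 differed by 0.15 (adjusted p = 0.0965), SUPT5H, an elongation factor, by 0.15 (adjusted p = 0.185), and CHD4, the NuRD remodeller, by −0.09 (adjusted p = 0.124). Without the deviating library ESR1 passed the test (0.19) and the value of SUPT5H turned to −3.02e-05.

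The largest falls were in genes of varied function. PKNOX2, a homeobox factor, had 6.85, 7.37 and 8.25 CPM in siNT and 0.811, 0.951 and 1.08 CPM in siRBM39, and the groups did not overlap. It fell by 2.98 on the log2 scale (SE 0.09, adjusted p = 4.22e-30), against 0.47 in DMSO, and that difference passed the test (adjusted p = 1.14e-21). BDKRB2, the bradykinin B2 receptor, had 215, 234 and 247 CPM in siNT and 38.4, 56.1 and 71.2 CPM in siRBM39, a fall of 2.07 against 0.53 in DMSO. Further genes among the 15 with the largest falls were DHFRL1 (a dihydrofolate reductase copy, −2.54, whose reads may be shared with its parent gene), SLC22A4 (a carnitine-type transporter, −2.29), ZDHHC2 (a palmitoyltransferase, −2.16), KLHL29 (−2.15), RNFT1 (−1.98), IL6 (−1.97), SCN9A (a sodium channel, −1.96), SLC38A6 (−1.96), ZNF251 (−1.94), ADAMTS14 (a procollagen protease, −1.85), TMEM62 (−1.76) and VLDLR (a lipoprotein receptor, −1.73). All 15 lay below siNT in each of the 8 siRBM39 libraries, as the rule for naming them required.

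The largest rise was in GUCA1B, a guanylate cyclase activator best known from the retina, which had 0.403, 0.568 and 0.712 CPM in siNT and 5.96, 6.39 and 7.79 CPM in siRBM39. The groups did not overlap, and the log2 fold change was 3.53 (SE 0.13, adjusted p = 9.97e-28). LAT, an adaptor of T-cell receptor signalling, had 3.07, 3.90 and 4.33 CPM in siNT and 12.03, 14.4 and 32.1 CPM in siRBM39, a rise of 2.09, or of 1.88 without the deviating library. The T-cell marker CD3E was near 0 in all of these libraries. C1orf63, an arginine- and serine-rich protein, had 24.9, 28.04 and 29.7 CPM in siNT and 66.8, 80.1 and 85.3 CPM in siRBM39, a rise of 1.5 (SE 0.08, adjusted p = 6.04e-22) beside the more frequent removal of an intron described below. SEC31B, a vesicle coat protein, rose by 1.74 after siRBM39 and had a log2 fold change of −0.74 after siSF3B1. NUPR1, a stress-response protein, rose by 1.44 in 4OHT (1.32 without the deviating library) and differed by 0.11 in DMSO. The remaining named rises were ZNF557 (2.01), AC133561.1 (1.96), OVGP1 (1.90), LY6G5B (1.87), RRAGB (a Rag GTPase of amino acid sensing, 1.66), GALK2 (1.58), DHRS3 (a retinal reductase, 1.51, or 1.11 without the deviating library), AGT (angiotensinogen, 1.49), ANKRD10 (1.41) and YY2 (1.41).

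The SASP interleukins and chemokines fell as a list. Of 19 members tested, 14 were lower and 2 higher, with a median log2 fold change of −0.50 against 0.05 over all genes, and 11 lay below siNT in all 8 libraries. Without the deviating library 14 were lower and 3 higher. IL6, the best-known SASP interleukin, had 102, 115 and 140 CPM in siNT and 19.95, 24.8 and 44.9 CPM in siRBM39, without overlap. It kept 25.6% of the siNT level (log2 fold change −1.97, SE 0.15, adjusted p = 6.43e-16). IL1B, a driver of the SASP, had 2886, 3165 and 3494 CPM in siNT and 1479, 1622 and 2374 CPM in siRBM39, and fell by 0.79 (SE 0.12, adjusted p = 5.03e-07). The chemokines CCL20, CCL2, CXCL2, CXCL3, CXCL5, CXCL1 and CXCL6 had log2 fold changes of −1.41, −1.09, −0.86, −0.81, −0.55, −0.45 and −0.33. The colony-stimulating factors CSF3 and CSF2 had −0.67 and −0.48, and INHBA, IL1A and LIF had −0.51, −0.50 and −0.50. The receptor IL1R1 rose by 0.54, and its groups overlapped only through the deviating library (81.9 CPM). The other siRBM39 libraries had 121 to 165 CPM of IL1R1, and siNT at most 97.5 CPM. CXCL12 rose by 1.19 but reached at most 0.476 CPM.

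**Figure D2:**
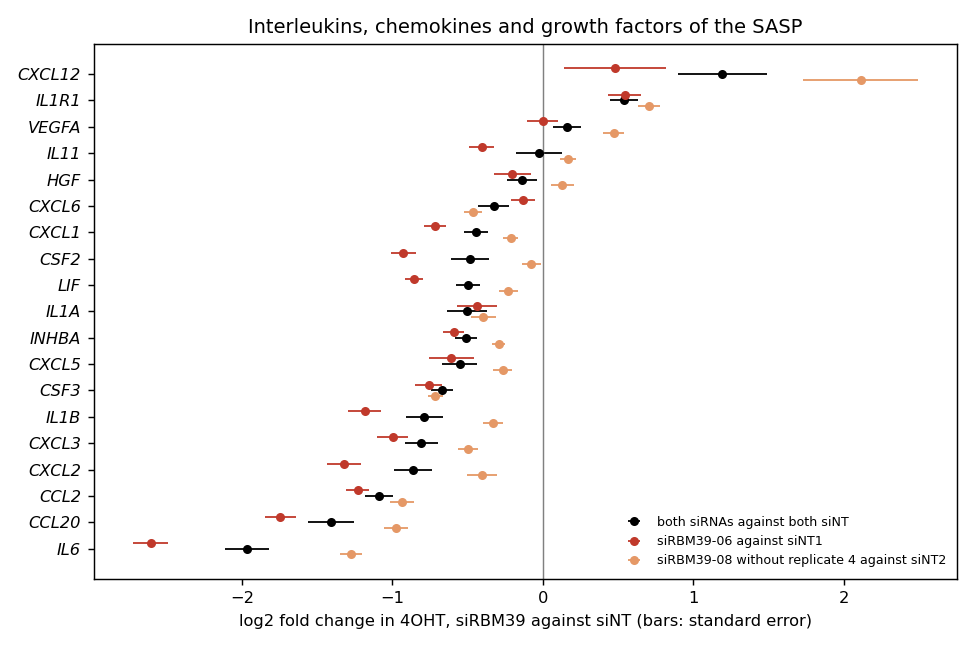
Log2 fold changes in 4OHT of the 19 tested SASP interleukins, chemokines and growth factors, as points with bars of 1 standard error; black is both siRNAs against both controls, red siRBM39-06 against siNT1, orange siRBM39-08 without replicate 4 against siNT2. IL6 lies lowest with both siRNAs (−2.61 and −1.27), and the red points of IL1B, CSF2 and LIF lie left of the orange ones.

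The siRNAs differed in the size of this fall. IL6 changed by −2.61 with siRBM39-06 and by −1.43 with siRBM39-08 (−1.27 without replicate 4), IL1B by −1.19 and −0.43, and CSF2 by −0.93 and −0.07. Over all genes, siRBM39-08 differed from siRBM39-06 at 3154 genes (3574 without replicate 4), while siNT2 differed from siNT1 at 35. Each siRNA against its own control called 5385 (siRBM39-06) and 5549 (siRBM39-08) genes. Of these 3606 were shared in the same direction, 67.0% of the first list and 65.0% of the second, and 187 were called in opposite directions.

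In DMSO the SASP list was mostly at very low levels, and it did not fall. There 5 members were higher and 1 lower (median 0.17). IL1B had medians of 0.296 CPM in DMSO siNT and 0.700 CPM in DMSO siRBM39, so its rise of 1.44 there concerns far lower levels than its fall in 4OHT. IL6 had medians of 1.32 and 1.21 CPM in DMSO (log2 fold change −0.11, adjusted p = 0.69). The effect in 4OHT was below that in DMSO, by the test of the difference, for 9 of the 19 members and above it for 2, where 686 of 9991 genes were below and 727 above. CCL2, expressed in both treatments, changed by −1.09 in 4OHT and by 0.17 in DMSO (difference adjusted p = 3.28e-10). In all, the effect differed between treatments for 1413 genes (14.1%), and for 2499 of 9991 without the deviating library, of which 1380 were in both counts.

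Genes of the NF-kB pathway, which drives SASP transcription, were mixed. Of 15 members 4 were higher and 3 lower, or 3 and 5 without the deviating library. BIRC3, an NF-kB-induced inhibitor of cell death, had 24.2, 31.5 and 35.4 CPM in siNT and 7.44, 16.2 and 22.7 CPM in siRBM39, and fell by 0.90 (SE 0.15, adjusted p = 7.89e-07). TNFAIP3 and NFKBIZ, both induced by NF-kB, fell by 0.48 and 0.47. The effect was below that in DMSO for 6 of the 15. Of 24 genes of the ERK output, 8 were lower and 3 higher, with the growth factors EREG and HBEGF at −0.83 and −0.63. HBEGF was not called with siRBM39-08 alone (−0.21). Of 21 matrix proteases and inhibitors 7 were higher and 5 lower. MMP14 fell by 0.45, a call lost with siRBM39-08 alone (−0.28), a fit that includes the deviating library. That library had 2520 CPM of MMP14, against 1634 to 1750 CPM in siRBM39-08 replicates 1 to 3 and 2001 to 2460 CPM in siNT. CTSK and PLAUR rose by 0.62 and 0.53. MMP1 had medians of 7875 and 7572 CPM and was not called. IGFBP3 fell by 1.13 and IGFBP6 rose by 0.98, or by 0.48 without the deviating library.

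Markers of the arrest itself did not move in a single direction. CDKN1A, the CDK inhibitor p21, rose by 0.37, and CDKN2B, the inhibitor p15, fell by 0.31. Of 25 p53 targets 9 were higher and 7 lower, or 14 and 8 without the deviating library, with GDF15 and BAX up by 1.06 and 1.01 and PMAIP1 down by 0.65. The deviating library had 1110 CPM of GDF15 and 331 CPM of BAX. The other siRBM39 libraries had at most 768 and 158 CPM, and they also lay above all siNT libraries. In the BCL2 family 6 of 15 were higher and 5 lower. The pro-apoptotic BMF rose by 1.10 and BCL2 itself by 0.76, while BCL2A1 fell by 0.71. Of 19 DNA replication genes 7 were higher and 2 lower, and of 19 mitotic genes 4 were higher and 2 lower, or 5 and 3 without the deviating library. Among the 14 homologous recombination and Fanconi genes 7 were lower and 1 higher. ATR, the replication stress kinase, had 42.4, 45.2 and 47.98 CPM in siNT and 9.41, 15.04 and 17.5 CPM in siRBM39, a fall of 1.63 to 32.3% of siNT (SE 0.08, adjusted p = 4.6e-23). FAN1, a repair nuclease, fell by 0.81.

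Genes of protein synthesis and turnover split by list. Of 20 aminoacyl-tRNA synthetases 9 were lower and 2 higher, or 12 and 2 without the deviating library. MARS, which charges methionine tRNA, had 167, 171 and 178 CPM in siNT and 66.9, 75.9 and 83.7 CPM in siRBM39 and fell by 1.19 (SE 0.05, adjusted p = 2.75e-24), and QARS fell by 0.78. Of 33 ribosome biogenesis genes 12 were lower and 4 higher, or 16 and 3 without the deviating library, with GNL3 at −0.63 and WDR12 at −0.61. Of 31 proteasome subunits 9 were lower and 4 higher, or 10 and 1 without the deviating library, and PSMD2 fell by 0.55. Of 70 cytosolic ribosomal protein genes 46 were higher and 1 lower, but 25 and 1 without the deviating library, and the list's median moved from 0.24 to 0.09. Of 37 respiratory chain genes 20 were higher and 5 lower, and 12 and 9 without it. Within that chain NDUFS1, a complex I subunit, fell by 1.10 and NDUFS4, another, rose by 0.65.

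Other lists held single large changes. SLC7A11, the cystine transporter, fell by 1.30 while the antioxidant genes OSGIN1, HMOX1 and GCLC rose by 0.98, 0.76 and 0.74. Of 20 cholesterol synthesis genes 7 were lower and 1 higher, led by the sterol reductase TM7SF2 at −1.24 and the transcription factor SREBF2 at −0.46. Of 25 lysosomal genes 14 were higher and 5 lower, or 18 and 5 without the deviating library. Among them SQSTM1, an autophagy receptor, was up by 0.67 and HEXA, a hexosaminidase subunit, down at −0.51. Of 22 collagens 7 were higher and 4 lower, or 5 and 5 without the deviating library, where the median turned from 0.14 to −0.03, with COL13A1 at −1.73 and COL8A1 at −0.92. Of 18 contractile genes 8 were higher and 5 lower, with the smooth-muscle actin ACTG2 up by 1.01. The ATF4 and endoplasmic reticulum stress list moved both ways. It had 6 higher and 3 lower of 23, or 8 and 3 without the deviating library, with log2 fold changes from −1.73 to 0.76. EDEM1 and ASNS were lower in every siRBM39 library than in any siNT library, while the stress factors ATF4 and DDIT3 rose by 0.47 and 0.76. The deviating library was highest for both (342 and 17.5 CPM, against at most 212 and 10.1 CPM in the other siRBM39 libraries). Of 17 interferon-stimulated genes 4 were lower and 3 higher, led by OAS3 at −1.23. CXCL10 fell by 0.74 in 4OHT and rose by 1.02 in DMSO. In the lists of transcription elongation (6 higher, 6 lower of 20), NuRD (7 higher of 13) and the RAS pathway (3 higher, 3 lower of 17), SUPT6H was at −0.53, CHD3 at 0.33 and KSR1 at 0.33. Without the deviating library elongation had 9 higher and 4 lower, NuRD 6 higher, and the RAS pathway 5 higher and 3 lower.

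**Figure D3:**
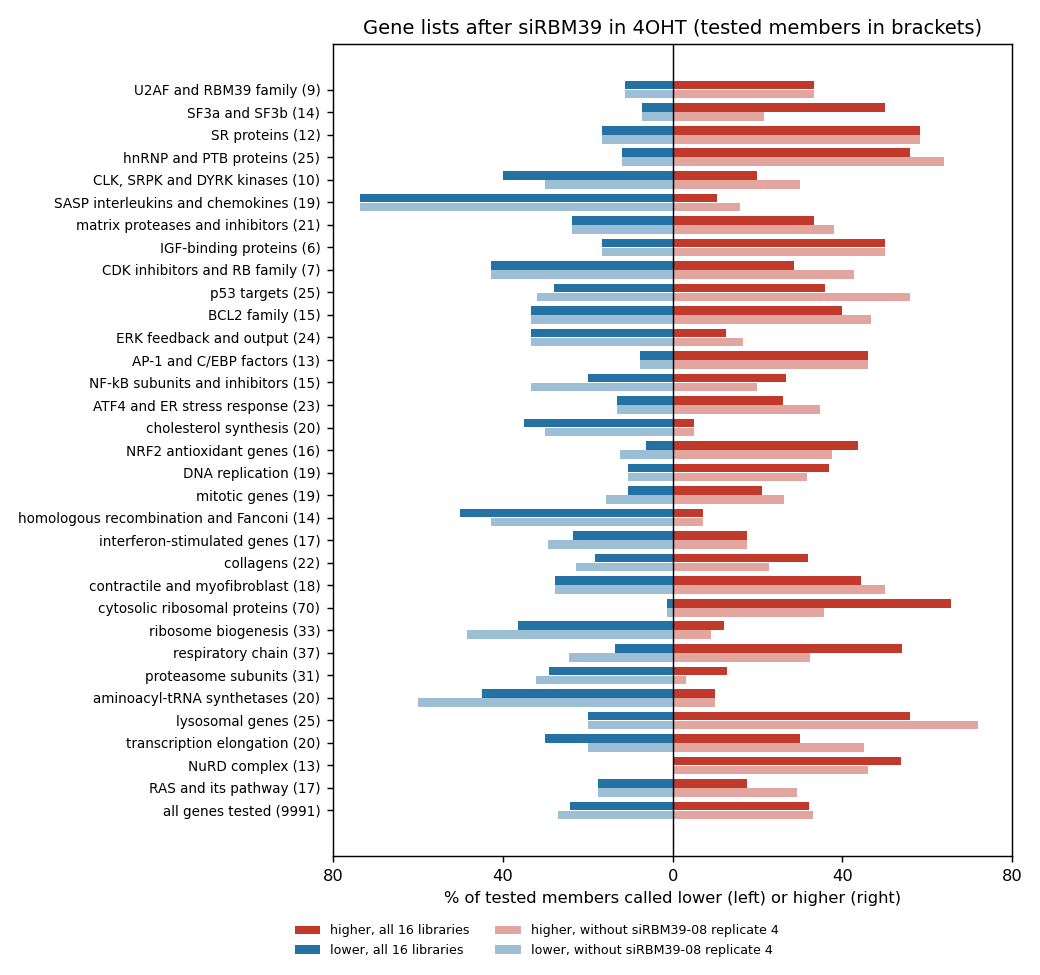
Share of each gene list's tested members called higher (red, right) or lower (blue, left) after siRBM39 in 4OHT, with the number tested in brackets; dark bars use all 16 libraries and pale bars leave out siRBM39-08 replicate 4. SASP members lie mostly to the left (14 of 19 lower), and the dark red bar of the ribosomal proteins (46 of 70) shortens to 25 of 70 without that library.

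Splicing was measured as PSI, the percentage of a gene's transcripts that include an exon, retain an intron or use a splice site. Calls required limma's adjusted p on the logit of PSI to be under 0.05 and PSI to differ by 5 percentage points or more. Mean PSI over the 7673 tested cassette exons was 83.4, 83.5 and 83.6% in siNT and 81.9, 82.0 and 82.1% in siRBM39 (lowest, median and highest library), so every siRBM39 library lay below every siNT library. The difference was −1.48 points (two-sided exact permutation test over 12870 assignments, p = 0.000155, the smallest it can give) and −1.47 without the deviating library. Mean PSI of the 5248 tested introns was 1.10, 1.20 and 1.33% in siNT and 1.63, 1.88 and 2.05% in siRBM39, again without overlap, a difference of 0.686 points (exact permutation p = 0.000155) and 0.669 without that library.

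Of the exons 717 (9.34%) were called, 630 of them (8.21% of exons tested) towards skipping and 87 towards inclusion, in 576 genes. Without the deviating library 615 and 81 were called, and 664 exons were called both ways. For 338 of these the 8 and 8 libraries did not overlap. The change reached 20 points for 127 exons. Of the introns 109 (2.08%) were called, 101 towards retention and 8 towards removal. Of the alternative 3′ splice sites 35 (7.04%) were called, and of the alternative 5′ splice sites 3 (0.880%). No tested event lay in RBM39.

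The ZNF207 exon of 48 nt, printed above, had PSI values of 79.0, 86.5 and 93.6% in siNT and 15.8, 24.6 and 31.4% in siRBM39, a difference of −62.5 points (adjusted p = 2.12e-18). The groups did not overlap, and 142 to 189 reads per siNT library and 87 to 271 per siRBM39 library stood behind the values. The BECN1 exon of 61 nt had 57.1, 70.6 and 74.0% in siNT and 8.37, 10.1 and 13.0% in siRBM39 (−58.7 points, adjusted p = 4.06e-18). The gap between the groups was wide, and 3 other BECN1 exons were also skipped more, with differences of −19.9, −26.8 and −51.3 points. The PABPC4 exon of 87 nt had 80.2, 89.5 and 92.1% in siNT and 18.1, 32.4 and 50.5% in siRBM39 (−55.5 points, adjusted p = 2.66e-15). The PAPOLA exon of 63 nt had 69.2, 76.2 and 84.9% in siNT and 18.9, 26.5 and 37.7% in siRBM39 (−50.04 points, adjusted p = 1.52e-12). An adjoining PAPOLA exon of 75 nt was also skipped more (−34.6 points). An exon of 191 nt of MICAL1, an actin-oxidising enzyme, had the largest change of the named exons. Its PSI was 76.5, 89.9 and 100% in siNT and 8.91, 20.5 and 61.4% in siRBM39 (−64.0 points, adjusted p = 2.58e-12), on 25 to 73 reads per siRBM39 library, and the value of 61.4 came from siRBM39-06 replicate 2 alone.

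The GANAB exon of 66 nt had 17.7, 25.2 and 26.6% in siNT and 52.3, 61.1 and 71.3% in siRBM39, a gain of 37.2 points (adjusted p = 6.41e-15) without overlap. The SNX14 exon of 27 nt had 52.5, 61.7 and 72.1% in siNT and 91.6, 93.3 and 100% in siRBM39, a gain of 31.7 points (adjusted p = 3.61e-08).

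**Figure D4:**
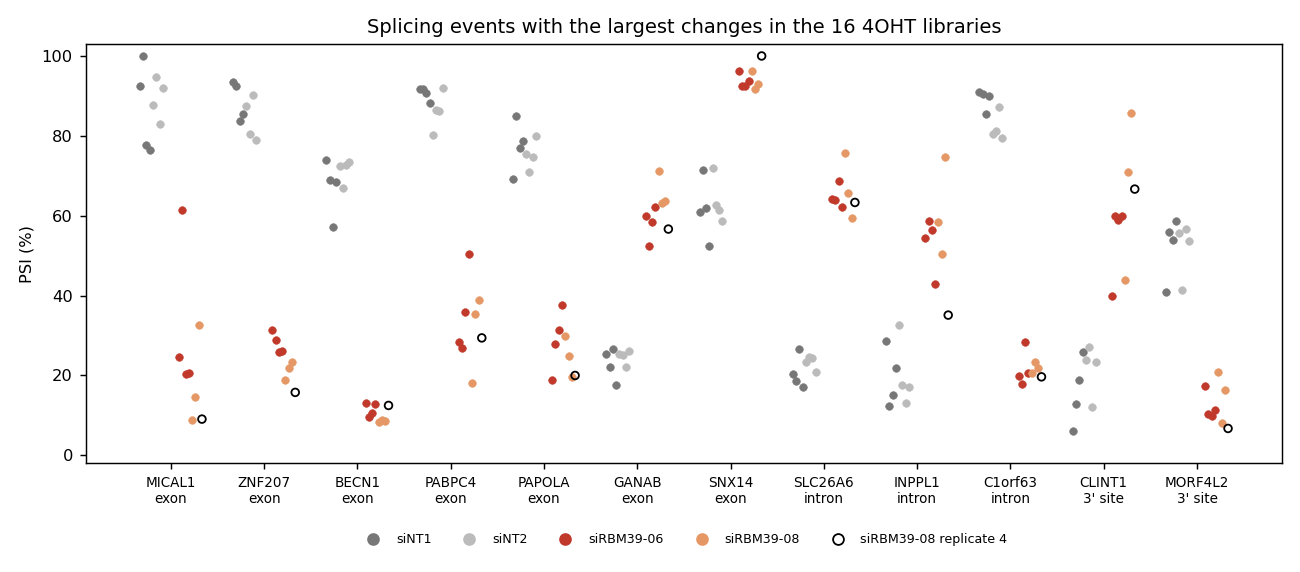
PSI of 12 events in each of the 16 4OHT libraries, grey for siNT1 and siNT2, red and orange for siRBM39-06 and siRBM39-08, open circle for siRBM39-08 replicate 4. Groups do not overlap for any of the 12, and the open circle lies inside or near its group, as for BECN1 where all siRBM39 libraries lie between 8.37 and 13.0%.

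The retained intron that gained most was in SLC26A6, an anion exchanger, with 17.01, 22.2 and 26.7% in siNT and 59.5, 64.1 and 75.7% in siRBM39 (43.4 points, adjusted p = 7.99e-13). An intron of INPPL1, a lipid phosphatase, had 12.3, 17.3 and 32.5% in siNT and 35.1, 55.4 and 74.6% in siRBM39 (34.1 points, adjusted p = 1.59e-06). Neither pair of groups overlapped. Introns of CENPT, a kinetochore protein, and ACAP3 gained 24.4 and 23.8 points. In the other direction an intron of 1516 nt in C1orf63 had 79.4, 86.3 and 90.9% in siNT and 17.98, 20.6 and 28.5% in siRBM39 (−64.1 points, adjusted p = 1.39e-16). Here the intron was removed more often and the gene's counts rose. An intron of SS18 dropped by 8.57 points, a call that neither siRNA gave alone. Among alternative 3′ splice sites, CLINT1 gained 42 points on 12 to 37 reads per library (not called with siRBM39-06 alone), ARL6IP4 gained 29.2, and MORF4L2 dropped by 39.5.

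Events in splicing factor genes were among those called. A coding exon of 54 nt in RBM23 (chr14:23374815-23374868, GRCh37, minus strand) had 87.7, 97.4 and 100% in siNT and 57.1, 78.4 and 80.2% in siRBM39 (−22.1 points, adjusted p = 1.92e-09). An exon of 51 nt in PUF60, a U2AF-related factor, had 37.4, 44.4 and 54.3% in siNT and 7.37, 17.8 and 21.9% in siRBM39 (−28.7 points, adjusted p = 3.4e-10). The expression of PUF60 was not called (log2 fold change 0.18, edgeR adjusted p = 0.162, and −0.03 without the deviating library). U2AF1 holds a pair of alternative exons of 67 nt. The downstream exon (chr21:44520563-44520629, GRCh37, minus strand) had 45.7, 58.7 and 65.4% in siNT and 25.9, 38.9 and 45.4% in siRBM39 (−19.5 points, adjusted p = 0.000102), and the upstream exon (chr21:44521476-44521542) was not called. Those exons and that of RBM23 are shown because their products belong to the same step of splicing.
RBM23: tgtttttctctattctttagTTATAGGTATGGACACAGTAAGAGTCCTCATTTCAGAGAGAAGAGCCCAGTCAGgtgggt
U2AF1 upstream exon: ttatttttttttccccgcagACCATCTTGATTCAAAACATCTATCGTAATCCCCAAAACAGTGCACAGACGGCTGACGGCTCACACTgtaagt
U2AF1 downstream exon: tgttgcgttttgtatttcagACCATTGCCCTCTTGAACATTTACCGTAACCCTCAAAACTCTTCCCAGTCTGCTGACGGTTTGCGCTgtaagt

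Further called events lay in hnRNP and SR genes. An alternative 3′ splice site of HNRNPUL1 dropped by 27.7 points, exons of HNRNPH1, PCBP2 (the exon of 23 nt), PTBP1 and HNRNPR had differences of −15.4, −13.1, −9.58 and −6.44 points, and an exon of HNRNPA2B1 gained 13.4. SRRM2 had 4 exons that were skipped more, by differences of −14.7 to −6.46 points. SRSF5 retained 2 introns more, by 16.1 and 9.51 points, and an SRSF2 exon gained 5.61. Introns of TIA1 and DDX46 had differences of −8.88 and −7.81 points and one of RBM17 gained 6.96. An alternative 5′ splice site of HNRNPH1 gained 15.9 points. With siRBM39-06 alone the SRSF2 exon, the RBM17 intron, the SRSF5 intron of 9.51 points and the HNRNPH1 5′ site lost their calls, and with siRBM39-08 alone the SRRM2 exon of 273 nt did.

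Skipped and included exons were of different kinds. The 630 skipped exons had a median length of 101.5 nt against 105 nt over all tested, and a median siNT PSI of 95.2% against 99.4%. Of the skipped exons 17.3% had a siNT PSI of 20 to 80%, against 3.08% of all tested. The length of the skipped exons was a multiple of 3 in 51.7%, against 42.3% of all tested exons. The 87 exons included more had a median length of 76 nt and a median siNT PSI of 17.7%, and 17.2% of them were 27 nt or shorter, against 1.29% of all tested. In the 509 skipped exons matched to GRCh37 (80.8%) the median share of pyrimidines in the 17 bases from 20 to 4 before the exon was 76.5%, the same as over all 6217 matched exons. In the 69 of 87 exons included more that had a match (79.3%), this median share was 70.6%. These figures are descriptions, since filters on PSI range and size bear on which exons can be called. The 101 introns retained more had a median length of 309 nt, against 800.5 nt over all tested.

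The splicing changes were largely shared with DMSO. In DMSO 634 exons (8.26%) were called. Of the 630 exons skipped more in 4OHT, 434 (68.9%) were also called towards skipping in DMSO, as were 53 of 87 (60.9%) towards inclusion and 55 of 101 introns (54.5%) towards retention, and no event of these kinds was called in the opposite direction. The test of the difference between treatments called 3 exons (1 without the deviating library), at an adjusted p under 0.05 in limma and at least 5 points. For gene expression 4605 genes (46.1%) were called in DMSO. The same direction was called in both treatments for 1757 of the 3216 genes that were higher in 4OHT (54.6%) and 1601 of the 2423 that were lower (66.1%), and 76 and 66 were called in the opposite direction. The siRNAs shared 372 exons in the same direction, 64.8% of the 574 called with siRBM39-06 and 69.3% of the 537 called with siRBM39-08, and no exon was called in opposite directions.

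Depletion of RBM39 and of SF3B1 was also compared directly. Libraries with siRBM39 and siSF3B1 in 4OHT differed at 7133 genes (71.4%) and 2018 exons (26.3%). As both were set against the same siNT libraries, their values are given side by side. RBM39 itself was raised by 1.06 on the log2 scale after siSF3B1. Of the 630 exons skipped more after siRBM39, 299 did not pass the test against siSF3B1, 180 had higher PSI than after siSF3B1 and 151 lower. A group of 37 events passed the tests in opposite directions after the knockdowns, with the direct contrast also passing and each also called without the deviating library. These were 26 exons included more after siRBM39, 8 exons skipped more, and 3 alternative 3′ splice sites.

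Of those 34 exons 6 were 27 nt or shorter and 8 were over 150 nt, with a median of 68 nt. Among all exons included more after siRBM39 17.2% were 27 nt or shorter, against 1.29% of all tested. The examples below were chosen after their values were seen. The SNX14 exon of 27 nt had a mean PSI of 62.7% in siNT, 94.4% after siRBM39 and 9.65% after siSF3B1. A PTPRS exon of 12 nt, in a receptor phosphatase, stood at 72.8, 93.6 and 10.04% in the same order, and a MARK3 exon of 45 nt, in a microtubule-regulating kinase, at 54.0, 77.3 and 6.90%. Exons of 6 nt in AP2M1 (an endocytic adaptor) and of 9 nt in PSAP (prosaposin) and MAP4K4 (a kinase) gained 10.53, 29.9 and 17.6 points after siRBM39 and had −43.2, −15.8 and −27.8 points after siSF3B1. TPM1, a tropomyosin, moved a pair of exons of 76 nt, by −23.6 and 25.8 points after siRBM39 and by 9.44 and −8.61 points after siSF3B1. The PUF60 and U2AF1 exons had differences of −28.7 and −19.5 points after siRBM39 and gained 14.2 and 18.6 points after siSF3B1. The 3′ splice sites of MORF4L2 and HNRNPUL1 had differences of −39.5 and −27.7 points after siRBM39 and gained 22.5 and 27.2 points after siSF3B1.

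**Figure D5:**
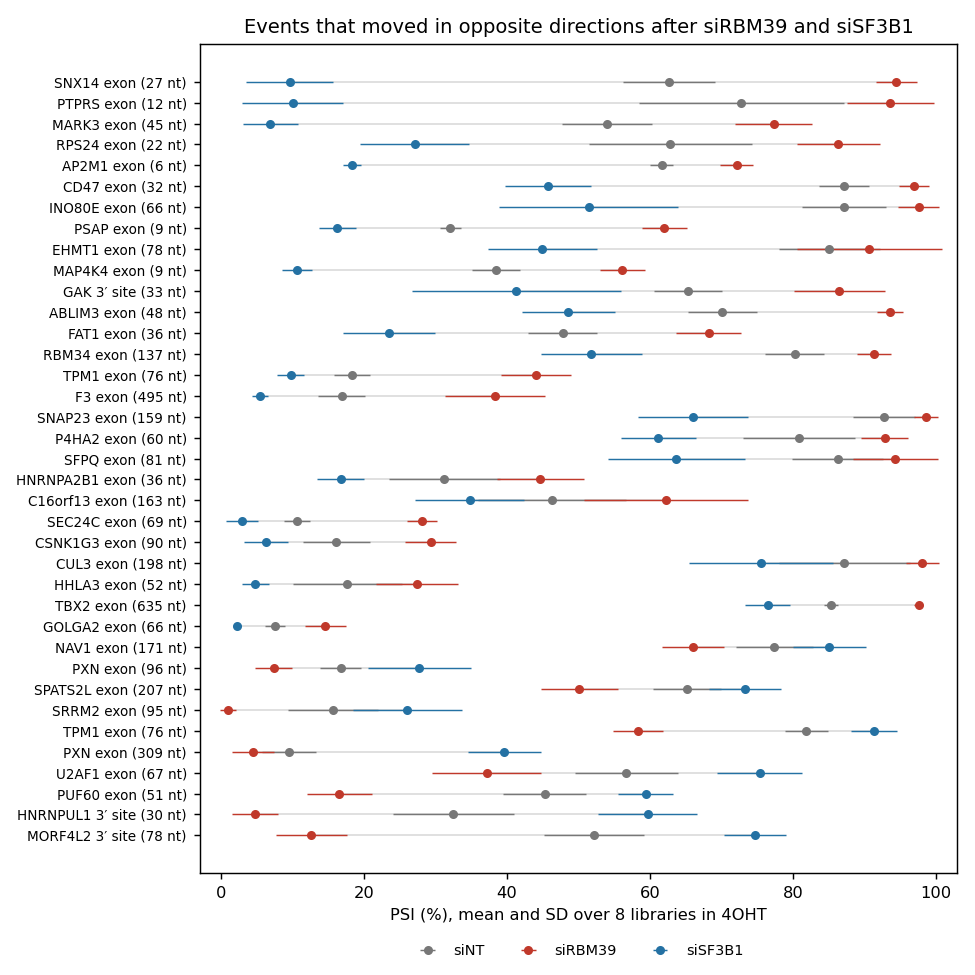
Mean PSI with SD over 8 libraries in 4OHT for the 37 events that moved in opposite directions, grey siNT, red siRBM39, blue siSF3B1; the label gives the gene and the length in nt. Red lies right of grey and blue left of it in the 27 upper events, such as SNX14 (94.4 against 9.65%), and the order is turned round in the 10 lower ones.

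Expression was set beside splicing in the genes that held events. Among 4287 genes tested for expression that held a tested event, 24.7% were lower and 30.4% higher. Among the 668 with a called event 28.9% were lower and 27.8% higher, and among the 127 with an event of at least 20 points 25.98% were lower and 31.5% higher, shares near those over all genes tested. By kind of event the shares differed. Among 502 genes with an exon skipped more, 31.3% were lower and 25.7% higher. Where that exon's length was not a multiple of 3, 35.2% of 261 genes were lower and 25.3% higher. Where it was, 28.3% of 279 were lower and 26.2% higher. Among 81 genes with an exon included more, 14.8% were lower and 27.2% higher. Of 94 genes with an intron retained more, 40 (42.6%) were lower and 25 (26.6%) higher, or 48 and 21 without the deviating library. The 5 genes picked by rule for the largest fall, among those holding a called event of at least 20 points, were APEH, a peptidase (−1.68, exon of 164 nt −21.3 points), PRKAG1, an AMP kinase subunit (−0.99, exon of 38 nt −23.1 points), PAPOLA (−0.94, exons given above), AKR1A1, an aldehyde reductase (−0.90, exon of 200 nt −34.4 points) and ACAA1, a peroxisomal thiolase (−0.88, exon of 43 nt −37.3 points). In each, all 8 siRBM39 libraries lay below siNT for the exon.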

How the data were processed

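RNA was measured in 48 libraries of poly(A)-selected RNA, of which the 16 with 4OHT and siRBM39 or siNT are the subject. The authors aligned reads with vast-tools and deposited, per gene, raw counts and cRPKM, an RPKM corrected for mappability, and per splicing event PSI in percent with its reads. The label field names hg19, but the deposited event coordinates lie in GRCh38. Exons were therefore matched to GRCh37 by their own length and those of the flanking introns (81.0% of tested exons). Introns were matched by their own length and those of the flanking exons. Where both flanks of an exon gave no match, a single flank was used, as for the printed PAPOLA exon. Sequences were read from GRCh37. Every column of values could be assigned to a sample (0 could not). Groups follow the sample titles. The 4 titles of 4OHT siNT2 carry a treatment label of siNT1.

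Counts were fitted with edgeR 4.0.16 (R 4.3.3; glmQLFit, glmQLFTest, TMM) as 6 group means over all 48 libraries, for the 9991 genes whose counts summed to 10000 or more. PSI was fitted with limma 3.58.1 on the logit of 0.01 + 0.98 PSI (as a fraction), for events with sufficient coverage whose PSI spanned 5 points or more. Introns also needed a deposited balance p-value, computed by the authors, of 0.05 or above. P-values were Benjamini-Hochberg adjusted over all features tested. The paper's limma-voom, DESeq2 1.42.0, other filters, and each library left out were alternatives. The fits were tested on simulated data. Libraries of the same siRNA differed by more than sampling noise (chi-square per degree of freedom 2.13 to 583 over 24 pairs), so none was counted as a duplicate. In pairs without siRBM39-08 replicate 4 the highest value was 25.4.

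The members, gene lists and tests were chosen with earlier results of these data known. Named genes were RBM39, its relatives and partners, HRAS, ESR1, SUPT5H and CHD4, the 15 largest rises and falls without overlap and held by both siRNAs and without siRBM39-08 replicate 4, the 2 largest rises and falls of each list, the events of largest change by type, called events in splicing genes, and the 5 lowest genes with an event of at least 20 points. Others were named after their values were seen. Some items that these rules name are not reported here.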

Additional observations from a re-analysis of the deposited data

Results flagged for a closer look

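In groups of 8, 29 of 152 groups held a library far from the others by Dixon's test, where chance alone gives about 1 in 20. In 24 of them that library was 4OHT siRBM39-08 replicate 4. It was the highest of its group in CPM for HRAS (1588), SUPT5H (437), PUF60 (297), SF1 (404), SF3B2 (499), SF3B5 (112), PHF5A (45.2), DDX42 (165), ADAMTS14 (6.81), DHRS3 (34.7), LY6G5B (63.4), OVGP1 (8.90), ZNF557 (40.1), LAT (32.1) and GUCA1B (7.79). It was the lowest for SF3B1 (224), UHMK1 (117), SF3B4 (69.6), KLHL29 (5.77), RNFT1 (2.53), VLDLR (2.03), YY2 (8.55), C1orf63 (66.8) and GALK2 (22.8). Among siNT libraries siNT1 replicate 3 was high for PHF5A (24.7) and low for the BECN1 exon (PSI 57.1), siNT1 replicate 4 was high for DDX42 (132) and siNT1 replicate 1 was low for AGT (1.08). The MICAL1 exon was high in siRBM39-06 replicate 2 (PSI 61.4).

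The siRBM39 effect differed between 4OHT and DMSO (edgeR, adjusted p under 0.05) for 16 of 57 named genes looked at here. Among all 9991 genes it differed for 1413 (14.1%). Many of the 57 were named for the size of their change in 4OHT, which by itself favours a larger effect there. Some of the 16, such as RBM39, SNRPA1 and IL6, are also members of the lists above. In log2 units the effect in 4OHT minus that in DMSO was −0.25 for RBM39, −0.64 for SNRPA1, −2.51 for PKNOX2, −1.50 for KLHL29, −1.53 for BDKRB2, −1.86 for IL6, −0.78 for ZNF251, −1.69 for ADAMTS14, −0.40 for TMEM62 and −0.60 for VLDLR. It was 1.34 for NUPR1, 0.47 for AGT, 0.52 for C1orf63, 1.23 for DHRS3, 0.33 for GALK2 and 0.63 for RRAGB. The library that deviates with GC content belongs to the 4OHT arm, and without it the difference was 0.83 for DHRS3 and −0.49 for VLDLR.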

How the results depend on the processing

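Under the alternatives run, 5651 values of named genes and 1294 of named events were recomputed. Of these values, 342 lost their call with the direction kept, 5 became stronger, and 2 reversed. The reversed values, both uncalled and both without siRBM39-08 replicate 4, were SUPT5H (log2 fold change −3.02e-05) and PUF60 (−0.0318). Over the libraries left out 1 at a time, SUPT5H reached 0.20 and PUF60 0.24. Counts moved by over 1.5 times as follows, and where only the threshold or filter differs that is its cause, while the cause of the others was not tested. Requiring a 2-fold change left 229 genes, 58 higher and 171 lower. With PSI from 1 to 99 and the plain logit, 273 exons, 38 introns, 20 alternative 3′ sites and 9 alternative 5′ sites were called. With the stricter coverage score the counts were 464 exons, 64 introns and 22 alternative 3′ sites. With no minimum difference they were 1254 exons and 363 introns, and with at least 10 points 387 exons, 28 introns and 19 alternative 3′ sites. Introns numbered 623 without the balance filter and 188 with filters and fit on the 16 libraries. Alternative 5′ sites numbered 5 in that fit, 10 by the probability of a difference, and 0 with siRBM39-06 alone (limma). Without siRBM39-08 replicate 4, added after seeing the data, 2499 genes differed in effect between 4OHT and DMSO. Leaving out 1 library at a time gave 5383 to 6013 genes, 684 to 715 exons, 95 to 110 introns, 29 to 36 alternative 3′ sites and 3 to 7 alternative 5′ sites. The last rose to 6, 5 and 7 without siNT1 replicates 2, 3 and 4. With a replicate block the counts were 5518 genes, 715 exons, 110 introns, 33 alternative 3′ and 3 alternative 5′ sites. The numbers were not taken to pair the libraries. Same-numbered libraries had correlations of −0.447 to 0.533 (median 0.0736), and differently numbered ones −0.602 to 0.539 (median −0.0137). Whether same-numbered libraries shared a batch cannot be told from these values. Depth limits calls for genes under a few CPM and events with few reads.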
